A study of Mus musculus with 12 samples.

Results

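Immediate early genes are transcribed within minutes of a stimulus, without new protein synthesis, and include the Nr4a orphan nuclear receptors, the Egr zinc finger factors, the Ier genes and several Kruppel-like factors. Their induction commonly runs through CREB, SRF and the ERK kinase cascade, and their messages are short lived. In neutrophils such genes respond to adhesion, inflammatory ligands and tissue handling, so their level in a sorted population can reflect recent stimulation of several kinds. The 10 genes described here, Nr4a1, Nr4a2, Nr4a3, Egr1, Egr2, Egr3, Ier2, Ier3, Klf4 and Klf6, were chosen by name out of 48709 genes in the table, and the question put to them was which are highest at 72 hours.

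The cells were Ly6Ghi neutrophils sorted from male C57BL/6N mice aged 8 to 10 weeks. Liver injury was produced with 1 intraperitoneal injection of carbon tetrachloride (CCl4) in corn oil at 1 mL/kg, and livers were taken 24 hours (4 libraries) or 72 hours (5 libraries) later. The comparison group, control splenic neutrophils, came from untreated mice (3 libraries). Livers were digested with collagenase D and passed over a Percoll gradient, whereas spleens were dissociated mechanically, so organ, digestion and injury cannot be told apart in either comparison with the spleen. Both liver groups went through the same digestion. Both comparisons with the spleen also share the same 3 libraries. The labels do not tie libraries to separate animals, so p-values measure only the spread between these libraries.

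The libraries held 1267089 to 3017403 reads on genes, which was 2.71% to 3.18% of uniquely aligned reads. The kit keeps strand, and the strand option of the counting step is not given in the sources used here, so whether these reads come from the sense strand of each gene cannot be told. The exons of the 10 genes overlap no other annotated gene on either strand. The 72-hour replicates 2 and 3 had 1.91% and 1.98% unaligned reads in the table, against 49.6% to 50.7% in the other 10 libraries. In the whole profile, 72-hour replicates 1 to 3 were closer to each other (chi-square per degree of freedom 8.48 to 12.9) than to replicates 4 and 5 (20.7 to 38.1). Spleen replicates 1 and 2 were likewise close to each other (2.47) and far from replicate 3 (37.5 and 41.3). At 24 hours replicates 1 and 2 were the closest pair (8.87), and the other pairs ran from 20.1 to 32.9. The 16 neutrophil markers summed to 11174, 11067 and 2493 normalized CPM (counts scaled to library size) in spleen replicates 1 to 3. In 24-hour replicates 1 to 4 they summed to 2550, 2951, 1236 and 1393 CPM, and at 72 hours to 2188 to 2959 CPM. Of the 14 tested, 5 were called lower than spleen at 24 hours and 7 at 72 hours. They included the granule genes Ltf, Ngp and Camp, which are made in maturing neutrophils: mean levels in spleen, at 24 and at 72 hours were 1186, 2.10 and 6.75 CPM for Ltf, 1375, 28.8 and 10.6 CPM for Ngp, and 118, 0 and 0.806 CPM for Camp. This difference ran beside every comparison with the spleen given here, and its part in them was not tested. Mpo and Elane, made earlier in granulocyte development, had at most 2 counts in any library. Of the 13 macrophage and Kupffer cell markers, which summed to 93.5 to 155 CPM in spleen, 143 to 210 at 24 hours and 122 to 187 at 72 hours, Clec4f and C1qa were at 0 in every library. Of the 4 tested, Cd163 had means of 1.25, 7.14 and 0.731 CPM in spleen, at 24 and at 72 hours and was called lower at 72 than at 24 hours (-2.92, edgeR adjusted p = 0.0318). Csf1r had means of 92.8, 141 and 137 CPM and was not called. The part of these cells in the values below was not tested. In bulk libraries, fewer cells expressing a gene and less RNA per cell cannot be told apart.

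Of the 10 genes, 9 passed the filter on low values (above 1 CPM in at least 3 libraries) and were tested among 12488 genes with edgeR's quasi-likelihood test. Nr4a2, Nr4a3, Egr2 and Egr3 were below 1 CPM in all 3 spleen libraries and passed through the liver libraries, so their direction against the spleen was partly set by the filter. Nr4a3 was also below 1 CPM in every 24-hour library and passed only through 72-hour libraries, and Nr4a2 passed mostly through them. Their order between the time points was thus partly set by the filter too. A gene was called when its Benjamini-Hochberg adjusted p was below 0.05 and its log2 fold change was at least 0.5 in size. At 24 hours 5 of the 9 were called higher than in spleen (Nr4a1, Egr1, Egr2, Ier2 and Ier3), where 5.35% of all tested genes were higher, 4.40% lower and 9.75% either. At 72 hours Egr3 joined them, giving 6 of 9, against 2.63% of all tested genes called higher, 2.71% lower and 5.33% either. No gene of the 9 was called between 72 and 24 hours by edgeR, DESeq2 or limma-voom, and 1 (Nr4a1) had an unadjusted edgeR p below 0.05. In that comparison 1.65% of tested genes were called higher, 2.84% lower and 4.49% either, so 0 of 9 is near those shares. Across the 3 groups at once 6 of the 9 were called, against 11.7% of tested genes. The median log2 fold change of the 9 was 3.16 at 24 hours and 4.43 at 72 hours against spleen, and 0.39 between the liver groups. The medians over all tested genes were -0.23, -0.02 and 0.18.

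**Figure D1:**
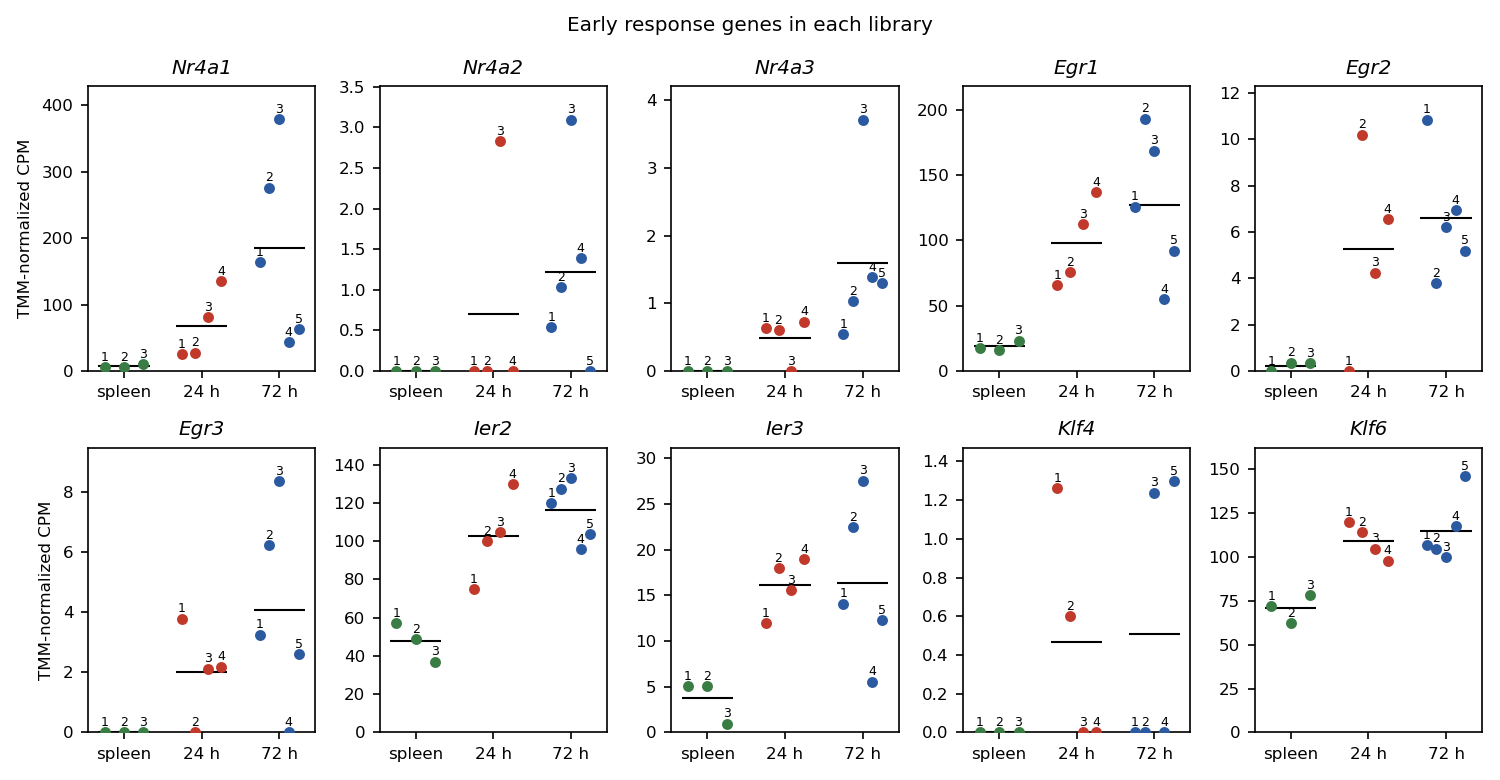
TMM-normalized CPM of the 10 genes in each of the 12 libraries (points, labelled by replicate number), with the group mean as a line and a separate linear axis for each gene. Nr4a1 ran from 5.57 to 10.3 CPM in spleen and from 43.8 to 379 CPM at 72 hours, and 72-hour replicates 4 and 5 lay at the bottom of that range for both Nr4a1 and Egr1.

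Nr4a1 (Nur77; GRCm38 chr15:101254269-101274795, plus strand) is a nuclear receptor with no known physiological ligand whose activity is set mainly by how much of it is made. Its normalized level was 5.57, 6.16 and 10.3 CPM in the 3 spleen libraries. At 24 hours it was 25.2, 27.6, 80.6 and 136 CPM in replicates 1 to 4. At 72 hours replicates 1 to 5 had 164, 276, 379, 43.8 and 62.9 CPM. Every liver library lay above every spleen library, while the 2 liver groups overlapped: 72-hour replicates 4 and 5 fell inside the 24-hour range and replicates 1 to 3 above it. Against spleen, the 24-hour log2 fold change was 3.16 with a standard error (SE) of 0.68 (edgeR adjusted p = 0.00464), and the 72-hour value was 4.64 (SE 0.70, edgeR adjusted p = 2.3e-04). Both calls were kept when any 1 of the 12 libraries was left out, and the 24-hour call was lost with limma-voom (adjusted p = 0.0668).

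Between the liver groups Nr4a1 was 1.47 higher at 72 hours on the log2 scale (95% interval 0.40 to 2.55, unadjusted p = 0.00964, edgeR adjusted p = 0.105), which was not called. The SD of its log2 CPM was 1.17 within the 24-hour group and 1.33 within the 72-hour group. The difference moved with which libraries were in the fit. Without 72-hour replicates 2 and 3, so that every library left had a like share of unaligned reads, it was 0.44 (edgeR adjusted p = 0.704). Without 24-hour replicate 4 it was 2.07 (edgeR adjusted p = 0.0501). Without 72-hour replicate 4 it was 1.72 and was called (edgeR adjusted p = 0.0388). Without 72-hour replicates 4 and 5, a choice made after the values were seen, it was 2.02 (edgeR adjusted p = 0.00482). It was also called without the filter on low values (1.48, edgeR adjusted p = 4.3e-06). The difference itself hardly moved there, while its SE was 0.26 in place of 0.52, so that small p reflects the estimate of the spread. DESeq2 gave 1.42 with an SE of 0.70 (DESeq2 adjusted p = 0.202), which was not called.

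**Figure D2:**
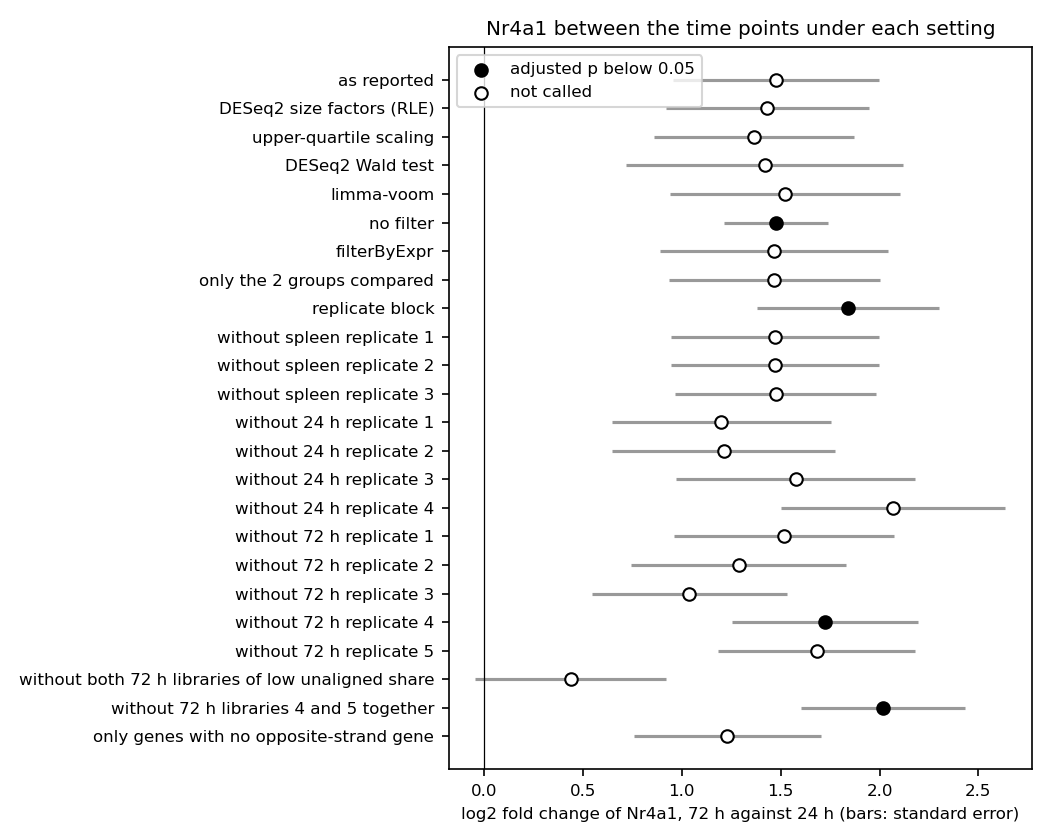
Log2 fold change of Nr4a1 at 72 hours against 24 hours with its standard error (bars) as reported and under each alternative, filled where the adjusted p was below 0.05. The difference stayed above 0 throughout, from 0.44 without 72-hour replicates 2 and 3 to 2.07 without 24-hour replicate 4.

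Other measures differed among the 72-hour libraries too. In replicates 1 to 5 the 14 hepatocyte markers summed to 9.76, 22.8, 35.6, 8.34 and 3.24 CPM, and the 12 heat shock genes to 235, 220, 290, 172 and 244 CPM. Replicates 2 and 3 were therefore highest for both Nr4a1 and hepatocyte markers. The hepatocyte sums were 2.32 to 6.11 CPM in spleen and 15.6 to 20.2 CPM at 24 hours, with Apoc3 and Ttr at 0 in every library. The 24-hour sums were mostly Apoa2, which had means of 3.90, 16.9 and 6.34 CPM in spleen, at 24 and at 72 hours. Alb had 0.121, 0.718 and 3.07 CPM, and 8 of the 14 markers were at 0 in all 24-hour libraries. The part of these in the Nr4a1 values was not tested.

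Nr4a2 (Nurr1) and Nr4a3 (Nor1) bind the same response elements as Nr4a1 but were near the limit of detection. Nr4a2 had no read in spleen, 0, 0, 4 and 0 reads at 24 hours and 1, 3, 10, 2 and 0 reads at 72 hours. Nr4a3 had no read in spleen, 1, 1, 0 and 1 reads at 24 hours and 1, 3, 12, 2 and 2 reads at 72 hours. Neither was called in any comparison by edgeR. For Nr4a3 at 72 hours against spleen the edgeR adjusted p was 0.0605 (0.0217 by limma-voom, which called it), and its 72-hour mean was at least 1.39-fold higher than the level of 3 reads per spleen library, the floor used for a group at 0. The pooled 72-hour to 24-hour ratio of Nr4a3 was 3.68, with a 95% counting interval of 1.09 to 19.3 that leaves out the spread between libraries. Nr4a3 passed the filter on low values only through 72-hour libraries, so this ratio cannot decide whether it rose. Replicate 3 held 12 of its 20 reads at 72 hours.

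Because the 3 receptor genes differ so much in level, the stretches before their RefSeq transcription starts (mouse GRCm38) are shown with the TGACG core of the cAMP response element (CRE), which reads CGTCA on the other strand, in capitals. In Nr4a1 the capitals also mark 1 match to the EGR site GCGGGGGCG, read on the other strand. The stretches are chr15:101266596-101266845 (plus strand, inside an intron of a longer annotated transcript), chr2:57124004-57124253 (minus strand) and chr4:48045055-48045152 (plus strand), and none covers an annotated exon of its gene.
Nr4a1: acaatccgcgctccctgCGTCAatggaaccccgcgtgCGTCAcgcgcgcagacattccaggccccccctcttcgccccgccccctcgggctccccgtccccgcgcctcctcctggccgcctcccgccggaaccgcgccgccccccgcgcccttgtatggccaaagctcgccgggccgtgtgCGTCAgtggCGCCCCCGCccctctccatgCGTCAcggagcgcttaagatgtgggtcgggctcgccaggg
Nr4a2: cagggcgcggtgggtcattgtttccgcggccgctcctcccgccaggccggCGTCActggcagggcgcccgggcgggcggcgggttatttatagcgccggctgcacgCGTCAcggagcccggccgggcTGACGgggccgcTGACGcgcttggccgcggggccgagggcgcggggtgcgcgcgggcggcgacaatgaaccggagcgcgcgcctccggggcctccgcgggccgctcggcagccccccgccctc
Nr4a3: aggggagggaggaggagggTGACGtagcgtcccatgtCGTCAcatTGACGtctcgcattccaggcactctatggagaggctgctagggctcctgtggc

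RefSeq windows of 250 bases before to 50 bases after the start were given for 7 of the 10 genes (not for Egr1, Egr3 or Ier2). Nr4a1, Nr4a2 and Nr4a3 each held 4 CRE cores, 1 of those in Nr4a3 lying beyond the stretch shown. At least 4 were found in 0.231% of 32851 windows, counted on both strands. Egr2 and Klf4 also held the core, making 5 of 7 genes, against 23% of the genes with a window. The full element TGACGTCA was found in none of the 7 (2.03% of the genes with a window), and the NR4A monomer site AAAGGTCA in none (1.7%). The EGR site was in Nr4a1 and Klf4 (3.31% of the genes with a window), and GGGCGG, which both EGR matches overlap, in all 7 (38.2%). A match is a description of letters, and the low counts of Nr4a2 and Nr4a3 stood beside as many cores as the higher counts of Nr4a1.

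Egr1 (chr18:34859823-34864984, plus strand) is the best known of the Egr factors, which bind GC-rich sites and drive cytokine and growth factor genes. It had 17.2, 15.9 and 23.2 CPM in spleen and 65.6, 75.6, 112 and 137 CPM at 24 hours. At 72 hours replicates 1 to 5 had 126, 193, 169, 54.9 and 92.1 CPM. All liver libraries were above all spleen libraries, and 72-hour replicate 4 was the lowest liver library. Against spleen the log2 fold change came to 2.37 at the earlier time (SE 0.38, edgeR adjusted p = 4.0e-04) and 2.76 at the later (SE 0.38, edgeR adjusted p = 7.3e-05), and both calls were kept without any 1 library. Between the time points it was 0.39, with a 95% interval of -0.25 to 1.02 (edgeR adjusted p = 0.497).

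Egr2 and Egr3 were much less abundant. Egr2, which restrains lymphocyte activation, had 0, 1 and 1 reads in spleen, 0, 17, 6 and 9 at 24 hours and 20, 11, 20, 10 and 8 at 72 hours. Its 72-hour libraries were all above spleen, and 24-hour replicate 1, at 0, was the only liver library not above it. The pooled ratio to spleen was 21.3 at 24 hours (95% counting interval 5.43 to 183) and 25.3 at 72 hours (6.74 to 213). Both differences were called (edgeR adjusted p = 0.0121 and 0.00713), and neither was without spleen replicate 1 (0.0606 and 0.0514). Between the time points the log2 difference was 0.31 (95% interval -1.01 to 1.63).

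Egr3 had no read in the 3 spleen libraries, 6, 0, 3 and 3 reads at 24 hours and 6, 18, 27, 0 and 4 reads at 72 hours. Set against 3 reads per spleen library, its mean was at least 1.76-fold higher at 24 hours, which was not called (edgeR adjusted p = 0.0514, called under 9 of 23 alternatives), and at least 3.56-fold higher at 72 hours, which was (edgeR adjusted p = 0.0164). Leaving out spleen replicate 1 (0.0666) or 2 (0.0817), or 72-hour replicates 2 and 3 together (0.170), ended that call. Replicates 2 and 3 held most of its 72-hour reads.

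Egr2 was the only one of the 7 genes with a match to the CArG box, the SRF site, which 1.81% of the genes with a window held. Its several RefSeq windows held 2 different boxes, and the 30 bases around one of them, chr10:67537789-67537818 on the plus strand and inside the annotated gene, are shown with the box and a CRE core in capitals.
Egr2: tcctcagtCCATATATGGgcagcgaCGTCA

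Ier2 and Ier3 are early response genes of different kinds: Ier2 is a nuclear regulator, and Ier3 (IEX-1) modulates ERK signalling and cell survival. Ier2 had 57.1, 48.6 and 37.0 CPM in spleen, 75.1, 100.2, 105 and 130 CPM at 24 hours and 120, 127, 133, 95.9 and 104 CPM at 72 hours. The liver libraries were all above spleen, and the spread at 72 hours was small. It was higher than in spleen by 1.11 (SE 0.26, edgeR adjusted p = 0.00837) at the earlier and 1.29 (SE 0.25, edgeR adjusted p = 0.00233) at the later time, as log2 fold changes. Both calls were kept without any 1 library, and the difference between the time points was 0.18 (95% interval -0.27 to 0.64).

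Ier3 had 5.10, 5.07 and 0.965 CPM in spleen, 11.98, 17.996, 15.6 and 19.0 CPM at 24 hours and 14.1, 22.5, 27.5, 5.56 and 12.3 CPM at 72 hours. The lowest liver value, 72-hour replicate 4, was just above the highest spleen value. Its log2 fold changes were 2.14 (SE 0.55, edgeR adjusted p = 0.0159) and 2.19 (SE 0.53, edgeR adjusted p = 0.0140). Both calls were lost without spleen replicate 3 (0.0554 and 0.0547), the spleen library that stood apart, and the 72-hour call without 72-hour replicates 2 and 3 (0.211). The 72-hour to 24-hour difference was 0.06 (95% interval -0.83 to 0.95), and its sign changed with the scaling.

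Klf6, an early response Kruppel-like factor expressed in myeloid cells, had 71.9, 62.3 and 78.1 CPM in spleen, 120, 114, 105 and 97.7 CPM at 24 hours and 107, 105, 99.7, 117 and 146 CPM at 72 hours. No liver library overlapped spleen at either time, as held for 9.76% and 5.59% of tested genes. The differences were not called by edgeR, though DESeq2 called both (adjusted p = 0.0278 and 0.0182): the log2 fold change was 0.62 (edgeR adjusted p = 0.0934) and 0.70 (edgeR adjusted p = 0.0760). Between the time points it was 0.07 (95% interval -0.35 to 0.49), and its sign, too, changed with the scaling. Klf4, which drives monocyte differentiation, failed the filter: it had no read in spleen, 2, 1, 0 and 0 at 24 hours and 0, 0, 4, 0 and 2 at 72 hours.

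**Figure D3:**
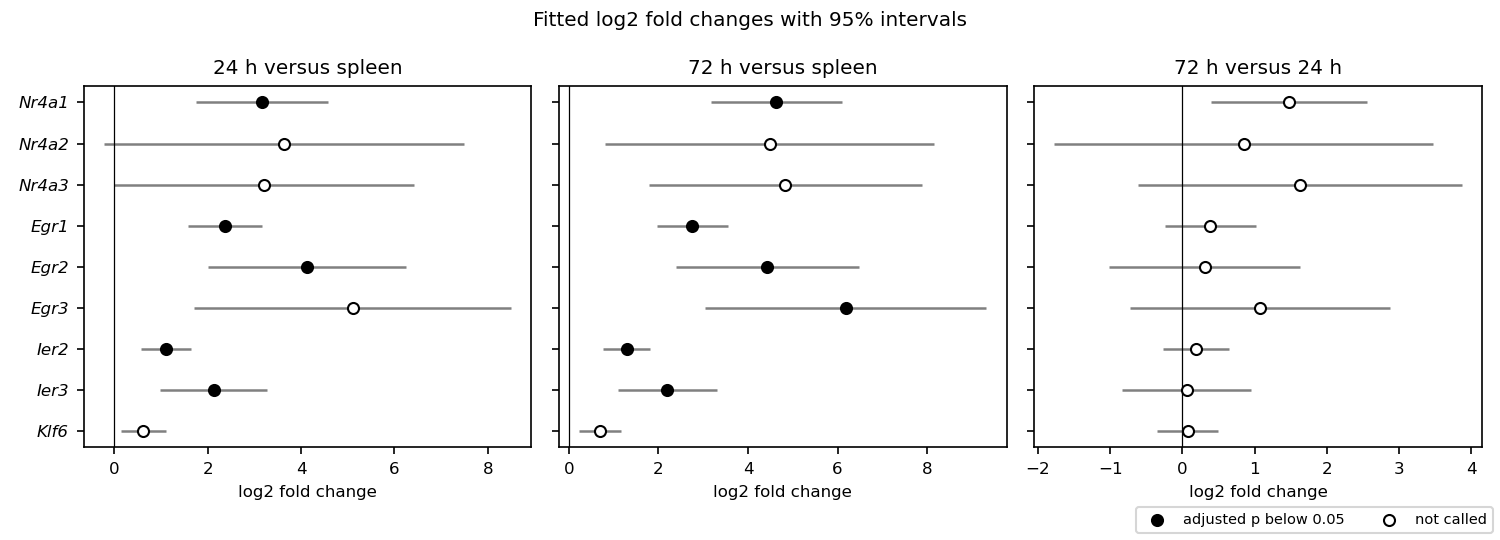
Fitted log2 fold change of the 9 tested genes with its 95% interval in the 3 comparisons, each on its own axis, filled where the adjusted p was below 0.05. The fitted values of genes with few or no spleen reads (Nr4a2, Nr4a3, Egr2, Egr3) have wide intervals and are not bounds, and in the right panel only the interval of Nr4a1 lay wholly above 0.

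By mean CPM the 9 tested genes were all highest at 72 hours, by mean log2 CPM 8 were (all but Ier3) and by median CPM 7. The places of Nr4a3 and Nr4a2 in these counts were partly set by the filter, passed only (Nr4a3) or mostly (Nr4a2) through 72-hour libraries. For comparison, 31.1% of all tested genes had their highest mean log2 CPM at 72 hours. None of the 9 was called higher at 72 hours against both spleen and 24 hours, where 0.144% of tested genes were. Between 72 and 24 hours no gene of the 9 had all its 72-hour libraries above all its 24-hour libraries, as 4.49% of tested genes had. For 9 genes, 0 is near both shares and does not set them apart from other genes. The data therefore gave an order of means for most of the 10 and no called peak for any. The intervals still allow a rise after 24 hours of up to 1.02 for Egr1, 0.64 for Ier2, 0.95 for Ier3 and 0.49 for Klf6 on the log2 scale. For Nr4a1 the upper limit was 2.55 and for Egr2 1.63. For the genes with fewest reads it was 2.87 (Egr3), 3.48 (Nr4a2) and 3.87 (Nr4a3).

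Compared per kilobase of exon, Ier2 was the most abundant of the 10 in each group, with a mean CPM per kilobase of 31.2 ± 6.62 (SD, n = 3) in spleen and 76.2 ± 10.3 (SD, n = 5) at 72 hours. Klf6 came next in spleen at 16.1 ± 1.81, followed by Egr1 at 4.18 ± 0.860, Ier3 at 3.28 ± 2.11 and Nr4a1 at 2.09 ± 0.733. At 72 hours Nr4a1 was at 52.7 ± 40.6, Egr1 at 28.3 ± 12.5, Klf6 at 26.2 ± 4.22 and Ier3 at 14.5 ± 7.66. The means of Nr4a1, Egr1 and Klf6 thus lay within 1 SD of Nr4a1 of each other at 72 hours, whereas in spleen Nr4a1 was well below Klf6. Egr2, at 1.94, and Egr3, at 0.927, were far lower.

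The genes did not vary together in a single way. Over the 12 libraries the Pearson correlation of log2 CPM between Nr4a1 and Egr1 was 0.961, and it was 0.954 after each group's mean was removed. Within groups Ier2 and Ier3 had 0.799. Klf6 had -0.68 with Nr4a1 and -0.67 with Ier2 within groups. Liver libraries high in Nr4a1 for their group were low in Klf6, while spleen replicate 3 was the highest of its group for both. These are descriptions over 12 libraries that share sorting and sequencing, and no p is given. The tested genes whose log2 CPM was most like that of Nr4a1 were Nfkbid (0.977), Ppp1r15a (0.977), B430119L08Rik (0.972), Sgsh (0.971) and mt-Te (0.968). Those most like Egr1 were Gm14321 (0.988), Tulp2 (0.982), Gm14023 (0.973), G0s2 (0.967) and A930007I19Rik (0.965). Ppp1r15a, B430119L08Rik, Sgsh, Tulp2 and Gm14023 overlap opposite-strand genes, so their reads cannot be told apart from those of these genes.

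**Figure D4:**
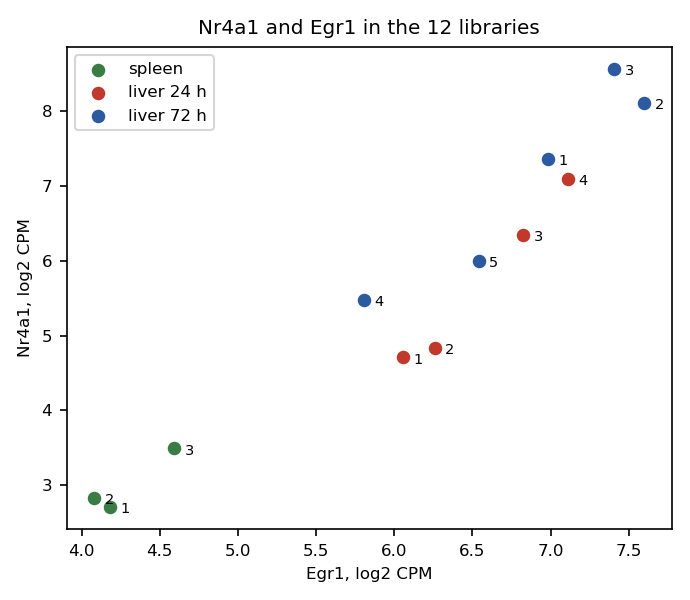
Log2 CPM of Nr4a1 against that of Egr1 in the 12 libraries, coloured by group and labelled by replicate number. The points follow 1 line through all groups (r = 0.961), with 24-hour replicates 1 and 2 and 72-hour replicates 4 and 5 at its lower liver end.

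Other early response genes gave a wider view. Of a list of 36, 33 were tested. Of these, 17 were called higher and 0 lower at 24 hours against spleen, where 5.35% of tested genes were higher. At 72 hours 21 were higher and 1 lower (Sgk1), where 2.63% of tested genes were higher. The median log2 fold changes of the list were 1.44 and 1.98. Between 72 and 24 hours 6 were called higher (Fos, Fosb, Atf3, Btg1, Btg2 and Rgs2) and 0 lower, with a median of 0.60, where 1.65% of tested genes were higher. Of the 33, 10 overlap an opposite-strand gene, and none of these 6 does. When only genes with no opposite-strand gene were fitted, Fosb (1.97, edgeR adjusted p = 0.0429) and Atf3 (1.80, edgeR adjusted p = 0.0442) were still called. Fos (0.93, edgeR adjusted p = 0.0886), Btg1 (0.46, 0.326), Btg2 (0.86, 0.0986) and Rgs2 (0.81, 0.0750) were not. The counts of these 6 genes were the same in that fit, whose scaling and spread came from 7665 genes. It is therefore no test of strand overlap for them.

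Fos, the partner of Jun in AP-1, rose from a mean of 87.6 CPM in spleen to 285 at 24 hours and 625 at 72 hours, a log2 fold change of 1.13 between the time points (edgeR adjusted p = 0.0195). Btg2, an antiproliferative gene, went from 39.2 to 113 and 236 CPM, with 1.06 between the time points (edgeR adjusted p = 0.0244). Fosb (2.19, edgeR adjusted p = 0.0315) and Atf3 (2.03, edgeR adjusted p = 0.0266) rose more, with overlapping groups. Rgs2, a brake on G protein signalling, rose by 1.01 (edgeR adjusted p = 0.0106) from 55.1 to 111 CPM, against 78.7 CPM in spleen, and was not called against spleen. Btg1 was called at 0.66 (edgeR adjusted p = 0.0483). Several of these calls depended on 1 library: leaving out each in turn, Fos was called in 9 of 12 fits, Fosb in 7, Atf3 in 8, Btg1 in 2, Btg2 in 7 and Rgs2 in 11. The fits without 24-hour replicate 1 or 2 or 72-hour replicate 3 ended the Fos, Fosb, Atf3, Btg1 and Btg2 calls. Those without 72-hour replicate 2 ended the Fosb, Atf3, Btg1 and Btg2 calls, and those without 24-hour replicate 3 the Fosb and Btg2 calls. Rgs2 lost its call without 24-hour replicate 1 alone, and Btg1 kept its own only without spleen replicate 3 or 24-hour replicate 3. With 72-hour replicates 2 and 3 both left out, Rgs2 (0.98, edgeR adjusted p = 0.0498) was called and the other 5 were not (0.126 for Fos to 0.232 for Btg2).

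**Figure D5:**
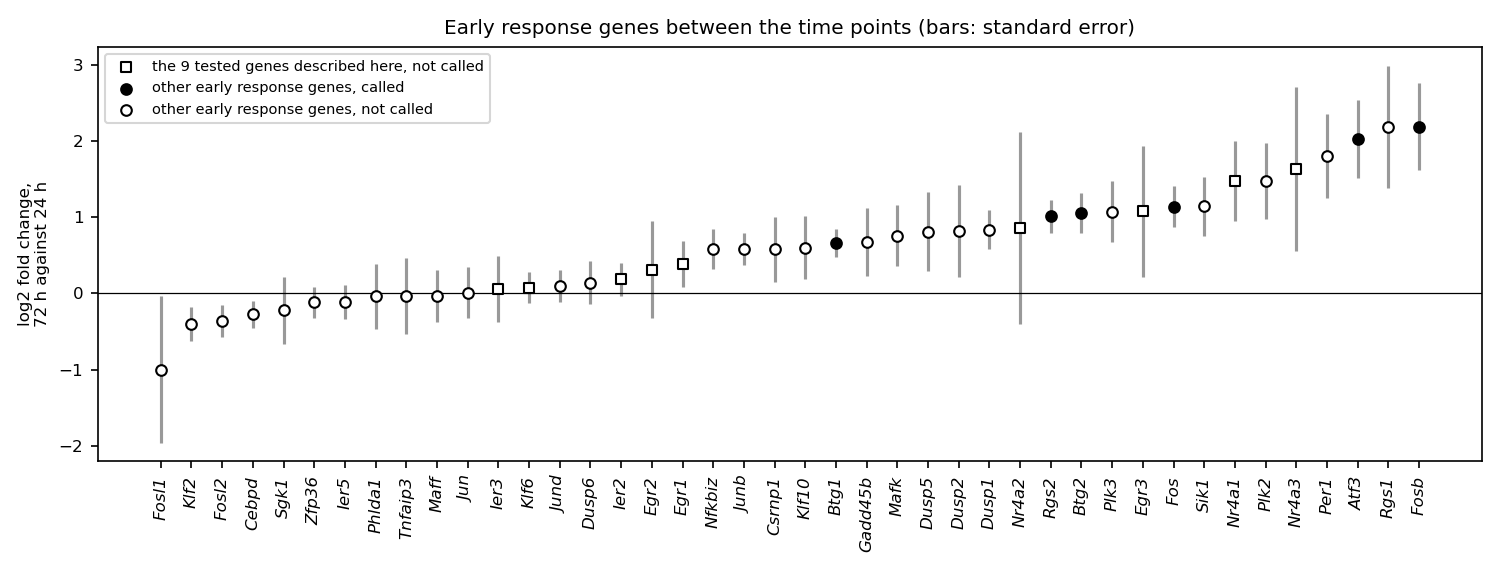
Log2 fold change at 72 hours against 24 hours of the 9 tested genes (squares) and the 33 tested genes of the wider early response list (circles), ordered by value, with standard errors as bars and called genes filled. The called genes were 6 of the wider list, and Nr4a1 at 1.47 lay between Fos (1.13) and Atf3 (2.03) in size.

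Regulators upstream of the Egr and Nr4a factors were counted in the same way. Of 21 tested SRF, CREB and ERK pathway genes, 1 was called higher (Elk3, an SRF partner, 0.87, edgeR adjusted p = 0.0485) and 1 lower (Rps6ka1, an ERK-activated kinase, -1.61, edgeR adjusted p = 0.0307) at 24 hours against spleen, where 9.75% of all tested genes were called. In the other comparisons 0 were called (unadjusted edgeR p below 0.05 in 0 at 72 hours against spleen and in 5 between the time points, and 0 calls by DESeq2 or limma-voom). Of all tested genes, edgeR called 5.33% at 72 hours against spleen and 4.49% between the time points. Elk3 and Rps6ka1 each have an opposite-strand gene. Of 9 tested cofactors 1 was called: Nab2, the Egr-induced repressor of Egr factors, had means of 177, 384 and 217 CPM, was higher at 24 hours (1.12, edgeR adjusted p = 0.00904) and fell by 0.83 on the log2 scale from 24 to 72 hours (edgeR adjusted p = 0.0389). Nab2 shares exon sequence with 3 opposite-strand genes, so reads of these and of Nab2 cannot be told apart. Leaving out spleen replicate 2 ended the 24-hour call (0.0749), and the fall was not called without any 1 of the 24-hour libraries, 72-hour replicate 2 or 72-hour replicate 3.

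Among 11 tested genes described as Egr1 targets, 5 were called higher at 24 hours (Nab2, Icam1, Tnf, Ptgs2 and Thbs1), 3 at 72 hours (Icam1, Ptgs2 and Thbs1), and none lower than spleen. The shares of all tested genes called higher were 5.35% and 2.63%. Nab2 and Thbs1 overlap opposite-strand genes. Between the time points 1 of the 11 was called higher (Ptgs2) and 1 lower (Nab2), where 1.65% of tested genes were higher and 2.84% lower. Ptgs2, the inducible cyclooxygenase, had means of 3.87, 82.1 and 371 CPM. It was higher at 72 than at 24 hours by 2.19 in log2 units (SE 0.43, edgeR adjusted p = 0.00718), with no overlap between the liver groups, and kept this call in 12 of 12 fits that left out 1 library. Without 72-hour replicates 2 and 3 together it was 1.32 (edgeR adjusted p = 0.0686). Of 8 tested other Kruppel-like factors, Klf2 (0.98, edgeR adjusted p = 0.0170) and Klf7 (1.79, edgeR adjusted p = 0.00861) were called higher at 24 hours, as 5.35% of tested genes were. In the other comparisons 0 were called by edgeR, DESeq2 or limma-voom, and 3 (72 hours against spleen) and 1 (between the time points) had an unadjusted edgeR p below 0.05. The edgeR shares of all tested genes called there were 5.33% and 4.49%. Klf7 overlaps opposite-strand genes. Of 10 tested heat shock genes, which respond to tissue handling, 0 were called against spleen by edgeR or limma-voom, and DESeq2 called 1 at each time (2 had an unadjusted edgeR p below 0.05 at each time). By edgeR 9.75% and 5.33% of all tested genes were called there, so 0 of 10 is near those shares. The part of handling was not tested. Hspa8 was called higher at 72 than at 24 hours (1.31, edgeR adjusted p = 0.0465), as 1.65% of tested genes were.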

How the data were processed

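RNA of sorted neutrophils was sequenced in 12 libraries. Per the labels and methods, the authors aligned paired reads with STAR 2.7.9a to GRCm38 and counted them per gene with HTSeq-count. The strand option is not given in the sources used here. The deposited values are raw read counts, and the 5 summary rows were left out. Gene models came from GENCODE M21 and promoter windows from RefSeq. Genes above 1 CPM in at least 3 libraries were fitted in 1 model of 3 groups with edgeR 4.0.16 (R 4.3.3; TMM factors, quasi-likelihood test, Benjamini-Hochberg over all tested genes), checked on simulated counts. Log2 CPM used a prior count of 2. The authors' own test, limma-voom (limma 3.58.1), and DESeq2 1.42.0 were alternatives, with other scalings and filters and each library left out. Counting intervals and floors cover counting error only. Named genes were the 10 chosen genes, list genes past the test (those with the smallest adjusted p, and any on which a result turns) and the 5 most like Nr4a1 and Egr1. The genes, lists and tests were chosen with earlier results of these data known. No 2 libraries agreed within sampling noise.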

Additional observations from a re-analysis of the deposited data

Results flagged for a closer look

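Of 36 gene and liver group pairs examined for a library far from the others (18 genes, 2 liver groups of 4 or 5 libraries), 2 had one, and chance alone gives about 1 in 20. Nr4a2 was at 2.83 CPM in 24-hour replicate 3, from 4 reads, while the other 3 libraries of that group had none. Nr4a3 was at 3.71 CPM in 72-hour replicate 3, from 12 reads, against 1.39 CPM in the next library. Replicate 3 was also the highest 72-hour library for Nr4a1, Nr4a2, Egr3, Ier2 and Ier3.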

How the results depend on the processing

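The strand of the counted reads is unknown, and spleen and liver differ in digestion as well as injury. Nr4a2, Nr4a3 and Klf4 had only a few reads, in libraries where few of the uniquely aligned reads fell on genes. Under the alternatives, which tested 6 to 10 of the 10 genes, the number called ran from 3 to 7 at 24 hours, from 4 (of 7 tested, without 72-hour replicates 2 and 3) to 7 at 72 hours, from 0 to 1 between the time points and from 4 to 7 across the 3 groups. Limma-voom called 3 at 24 hours, without Nr4a1 (adjusted p = 0.0668) and Egr2 (0.0925), and the cause was not tested. Nr4a1 alone was called between 72 and 24 hours (1 gene in place of 0, and 1 in place of 0 called against both groups) without the filter on low values, with the replicate number as a block, without 72-hour replicate 4 and, as added after seeing the data, without 72-hour replicates 4 and 5 together. Leaving out 1 library at a time gave 0 to 1 for both of these counts. Egr1 and Ier2 kept both calls against spleen under all 24 alternatives, and Nr4a1 kept that at 72 hours. Restricting the fit to genes with no opposite-strand gene ended 4 of the 6 calls of the wider list between the time points. It left the counts of those genes unchanged and altered only the scaling and the estimated spread.

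The replicate numbers did not pair the libraries: deviations from the group means correlated from -0.116 to 0.130 between libraries of the same number. The replicate block gave 1.84 for Nr4a1 between the time points (edgeR adjusted p = 0.0131), 6, 6 and 1 of the 9 genes called in the 3 comparisons, and -0.027 for Klf6.

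Signs that changed all belonged to 72 against 24 hours, in differences that were never called. They were Ier3 (-0.034) and Klf6 (-0.00031) with upper-quartile scaling, Ier3 (-0.00025) with limma-voom, and Ier2 (-0.024), Ier3 (-0.14) and Klf6 (-0.12) among genes with no opposite-strand gene. Without 72-hour replicates 2 and 3 they were Egr1 (-0.096), Egr3 (-0.011) and Ier3 (-0.58), and without 4 and 5 Klf6 (-0.087). Leaving out 1 library gave Egr2 (-0.11) and Ier3 (-0.060) without 24-hour replicate 1, Ier3 (-0.075 and -0.21) without 72-hour replicate 2 or 3, and Klf6 (-0.046) without replicate 5; over these fits Egr2 ran up to 0.88, Ier3 to 0.26 and Klf6 to 0.12. Over all genes, the counts called were 1218, 666 and 561 in the 3 comparisons and ranged over the alternatives from 554 to 1544, 287 to 1173 and 156 to 951. Upper-quartile scaling moved the share called higher from 54.8% to 63.2% at 24 hours and from 36.7% to 25.6% between the time points. No value was obtained for Nr4a2 at 24 hours against spleen without 24-hour replicate 3, since both groups were then at 0.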
